A study of Mus musculus with 9 samples.

Results

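The transcripts examined here are those of 10 genes at the output end of the Hippo pathway, chosen by name among the 29069 genes of the deposited table. They are the coactivators *Yap1* and *Wwtr1* (TAZ), the DNA-binding factors *Tead1* to *Tead4*, and 4 genes widely read as YAP output, *Ankrd1*, *Amotl2*, *Lats2* and *Axl*. All 10 have a row, and 9 passed the minimum mean of 5 normalised counts over the samples and were tested. *Ankrd1* did not pass.

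The cells were mouse embryonic stem cells (mESC) of the established mES-D3 line at passages p5-p8, adapted to culture without a feeder layer and kept for 24 h in 1 of 3 media, with 3 samples per medium. Ground state medium (GS) was serum-free NDiff N2B27 with 1 μM of the MEK inhibitor PD0325901, 3 μM of the GSK-3 inhibitor CHIR99021 and 20 ng/mL LIF. Spontaneous differentiation medium (DM) was DMEM with 10% fetal bovine serum, with neither inhibitors nor LIF listed. The third medium (NO), labelled mesendodermal, had the DM recipe plus 250 μM of the nitric oxide donor DETA/NO. The contrast of GS with DM or NO therefore changes serum, inhibitors, LIF and basal medium together, which cannot be told apart, whereas NO and DM differ by the donor alone. RNA came from 1 dish per sample, but the labels do not say whether dishes differed in day or passage, so p-values measure the spread between these dishes, which may be technical.

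In the Hippo pathway, the kinases MST1/2 activate LATS1/2, which phosphorylate YAP and TAZ and hold them in the cytoplasm. When LATS activity is low, YAP and TAZ enter the nucleus, bind TEAD factors and switch on genes of adhesion, matrix and growth, among them inhibitors of their own pathway such as *Lats2* and *Amotl2*. In the early mouse embryo TEAD4 with YAP drives the trophectoderm gene *Cdx2*, while the cells of the inner mass keep YAP out of the nucleus. The control of YAP and TAZ is largely exerted on the proteins, which RNA values do not show.

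TEAD factors recognise the hexamer GGAATG. Promoter windows of 300 bases, 250 before and 50 after each start, were searched for it on both strands in the RefSeq promoters of GRCm38.p6, and a gene with several windows counted once. On the opposite strand of the DNA the hexamer reads CATTCC. Of the 10 genes 8 had a window, and 7 of these 8 held the hexamer, against 16.6% of the 27025 genes with a window. The exception was *Tead2*, and *Tead1* and *Tead4* had no window. The AP-1 motif TGANTCA, which often lies beside TEAD sites, was searched separately on both strands and could overlap the hexamer. It was in 0 of the 8 genes and in 8.97% of all genes with a window. A match is a string of letters and not a bound site. The matches of the output genes and of both coactivators are shown 5′ to 3′ on the strand of the gene, with the hexamer in capitals and its first base counted from the transcription start as 0. For *Ankrd1*, *Amotl2* and *Lats2* they lie in annotated exons of the gene itself, and the others overlap no annotated exon.
*Ankrd1*, first match, at -210, chr19:36120039-36120064, minus strand: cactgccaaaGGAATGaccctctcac
*Ankrd1*, the other match, at -123, chr19:36119952-36119977, minus strand: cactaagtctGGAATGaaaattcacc
*Amotl2*, at -65, chr9:102717729-102717754, plus strand: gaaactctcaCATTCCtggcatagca
*Lats2*, at 4, chr14:57746104-57746129, minus strand: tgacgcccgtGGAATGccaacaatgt
*Axl*, at -233, chr7:25788941-25788983, minus strand: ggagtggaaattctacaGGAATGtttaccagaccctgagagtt
*Yap1*, at -141, chr9:8004712-8004757, minus strand: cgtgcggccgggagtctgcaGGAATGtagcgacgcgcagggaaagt
*Wwtr1*, at -136, chr3:57576021-57576066, minus strand: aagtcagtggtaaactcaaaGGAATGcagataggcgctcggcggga

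The values are read counts per gene that the authors scaled between samples with DESeq2 and rounded, called normalised counts below. The spacing of the low values gave an estimated depth of 14303147 to 27068814 assigned reads per sample, with 1 read worth between 0.70 and 1.32 normalised counts. NO replicate 2 stood apart: its summed level of 10 pluripotency markers was 59927 normalised counts, against 92114 to 118112 in the other 8. The stem cell marker *Pou5f1* was present in all 9, at 4276 in NO replicate 2 and 8983 to 15354 elsewhere. Not every marker on that list set NO replicate 2 apart. *Sox2* was the highest of the NO samples there, at 3122 against 2566 and 2749. *Klf4* (2433) and *Tfcp2l1* (10479) lay above DM replicate 3 (1805 and 9340). NO replicate 2 also had the highest value of the 3 NO samples for 41.8% of the 18156 tested genes. Results of members that rest on it are given with and without it. For genes outside the member list this was done for some only, and their other results are from fits with all 9 samples.

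A gene was called changed at a Benjamini-Hochberg adjusted p-value under 0.05 in limma with at least a 2-fold change. Of the 9 tested members, 1 was called in DM vs GS, where 4.2% of all tested genes were called. In NO vs GS 2 of 9 were called, beside 11.7% of all genes, and in NO vs DM also 2 of 9, beside 8.55%. Without NO replicate 2 the counts were 1, 1 and 0. Calls toward lower values made up 1.27%, 1.64% and 1.77% of all genes in the 3 comparisons. The median log2 fold change of the 9 was -0.08, 0.14 and 0.21 in the same order, and that of all tested genes was -0.00069, -0.016 and 0.0010. Groups of 3 values that did not overlap were seen for 4, 5 and 4 of the 9 members, where 29.6%, 39.1% and 33.4% of all tested genes had such groups. The 3 comparisons share samples, so their results are not independent of each other.

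**Figure D1:**
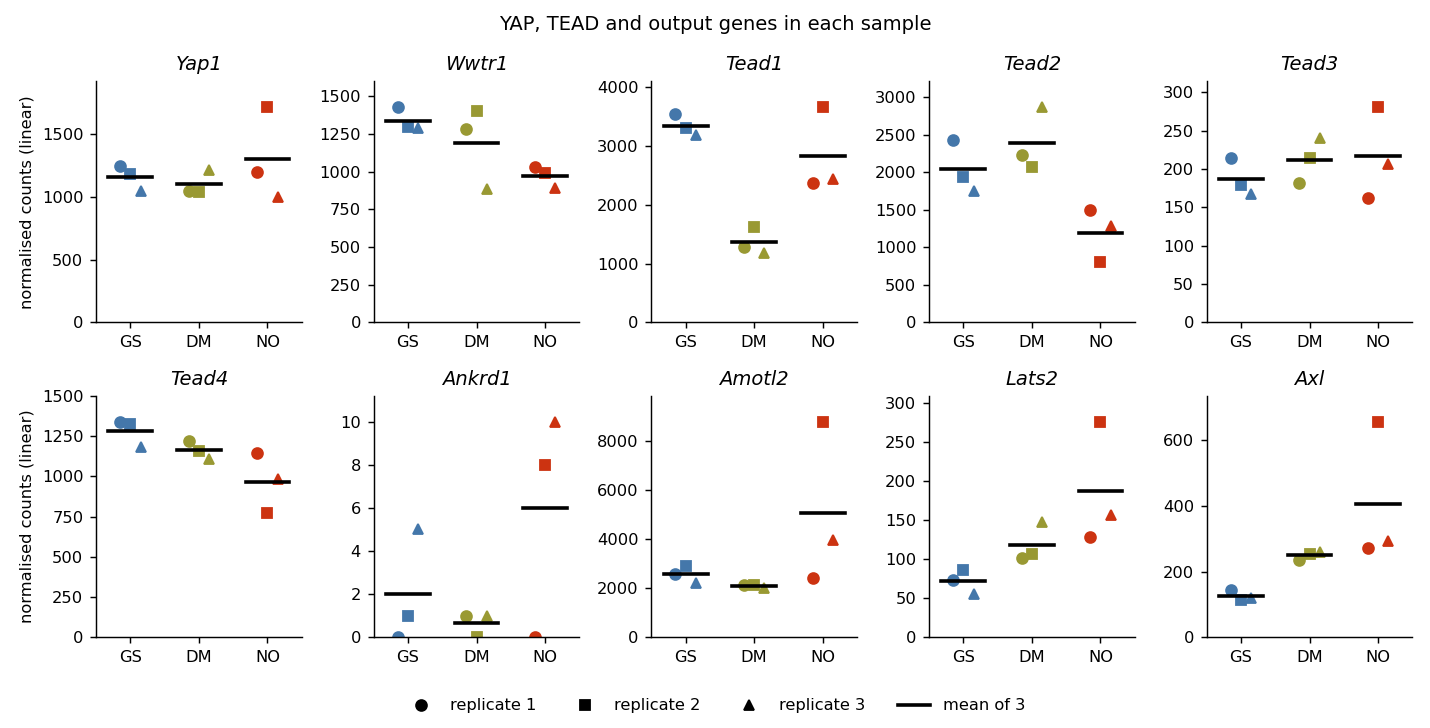
Normalised counts (linear axis from 0, own scale per gene) of the 10 genes in each of the 9 samples, with the medium on the x axis, symbols for replicates and a bar for the mean of 3. *Tead1* is low in DM at 1182 to 1627, *Tead2* is low in NO at 809 to 1494, and NO replicate 2 is the highest sample for *Amotl2*, *Lats2* and *Axl*.

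Neither coactivator was called in any comparison. *Yap1* (ENSMUSG00000053110, minus strand of chromosome 9, 7931999 to 8004596, GRCm38) stood at 1246, 1186 and 1052 normalised counts in replicates 1, 2 and 3 of GS, at 1050, 1041 and 1212 in those of DM, and at 1196, 1719 and 1004 in those of NO. The 3 media overlapped, and NO replicate 2 was the only sample above 1246. For DM vs GS the log2 fold change was -0.08, with a 95% interval from -0.48 to 0.32 and an adjusted p-value from limma of 0.866. Against GS, NO had 0.14 (-0.27 to 0.54, adjusted p-value 0.639), and against DM it had 0.21 (-0.19 to 0.61, 0.461). The sign turned without NO replicate 2 in both comparisons with NO, to -0.080 and -0.0033. *Yap1* shares 116 exonic bases with *Gm20416* on the opposite strand, and use of strand in the counting was not stated.

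*Wwtr1* (ENSMUSG00000027803, minus strand of chromosome 3, 57455649 to 57575910) encodes TAZ, the paralogue of YAP. The GS samples held 1429, 1298 and 1286 normalised counts of it, the DM samples 1282, 1405 and 882, and the NO samples 1033, 989 and 891. All NO values lay under all GS values, while DM replicate 3 was lower than every NO sample. The log2 fold change in NO vs GS was -0.46 ± 0.17 (SE), with an adjusted p-value from limma of 0.0758, and it passed at 0.0421 when DM was left out of the fit and at 0.0216 without DM replicate 3. DM gave an adjusted p-value of 0.581 against GS and of 0.309 against NO.

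The TEAD family supplied both members called in NO vs DM and the 1 called in DM vs GS. TEAD1 is the family member known for heart and muscle genes such as those with M-CAT elements. *Tead1* (ENSMUSG00000055320, plus strand of chromosome 7, 112679318 to 112906807) stood at 3549, 3308 and 3189 normalised counts in the GS samples, fell to 1278, 1627 and 1182 in the DM samples, and stood at 2368, 3668 and 2439 in the NO samples. DM was below both other media in all 3 samples, and the NO samples spread around and below the GS values. *Tead1* fell by 1.31 ± 0.18 (SE) on the log2 scale in DM vs GS (adjusted p-value from limma 0.00132) and rose by 1.04 ± 0.18 in NO vs DM (0.00612). Between NO and GS the log2 fold change was -0.27, with a 95% interval from -0.67 to 0.12 and an adjusted p-value of 0.312. The increase over DM was under the 2-fold minimum without NO replicate 2 (0.83), DM replicate 3 (0.94) or DM replicate 1 (just under 1), and its adjusted p-value was at most 0.0287 whichever sample was left out.

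TEAD2 is the family member best known from the early embryo and neural tissue. *Tead2* (ENSMUSG00000030796, plus strand of chromosome 7, 45215753 to 45233644, with 13 exonic bases shared with *Cd37* on the opposite strand) measured 2426, 1943 and 1752 normalised counts in the GS samples, 2235, 2071 and 2873 in the DM samples, and 1494, 809 and 1291 in the NO samples. Every NO value lay under every value of the other media, and GS and DM overlapped. *Tead2* fell by 1.03 ± 0.22 (SE) on the log2 scale in NO vs DM (adjusted p-value from limma 0.0138), and by 0.80 in NO vs GS (0.0272), which is less than 2-fold. DM and GS differed by 0.23, with an adjusted p-value of 0.628. Without NO replicate 2, the lowest sample, *Tead2* decreased by 0.77 from DM to NO, and by 0.89 without DM replicate 3, both under the 2-fold minimum. The adjusted p-value of that comparison did not exceed 0.0477 in any fit without 1 sample. The difference between NO and GS missed the threshold without GS replicate 1, GS replicate 2, NO replicate 2 or NO replicate 3, with adjusted p-values from 0.05 to 0.106.

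*Tead4* (ENSMUSG00000030353, minus strand of chromosome 6, 128224288 to 128300823), the trophectoderm factor, gave 1340, 1328 and 1181 normalised counts for GS, 1220, 1159 and 1109 for DM, and 1143, 772 and 984 for NO. The NO values lay under the GS values, with a log2 fold change of -0.42 ± 0.15 (SE) and an adjusted p-value from limma of 0.071, or 0.0197 without NO replicate 1. DM overlapped with both, with adjusted p-values of 0.671 against GS and 0.229 against NO. *Tead3* (ENSMUSG00000002249, minus strand of chromosome 17, 28331671 to 28350817), best known from placenta, was the scarcest TEAD message. It gave 215, 179 and 168 normalised counts for GS, 182, 214 and 241 for DM, and 162, 281 and 207 for NO. The groups overlapped in each comparison. The adjusted p-values of DM and NO against GS were 0.715 and 0.602, and that of NO against DM was 0.997, with a 95% interval from -0.48 to 0.49.

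**Figure D2:**
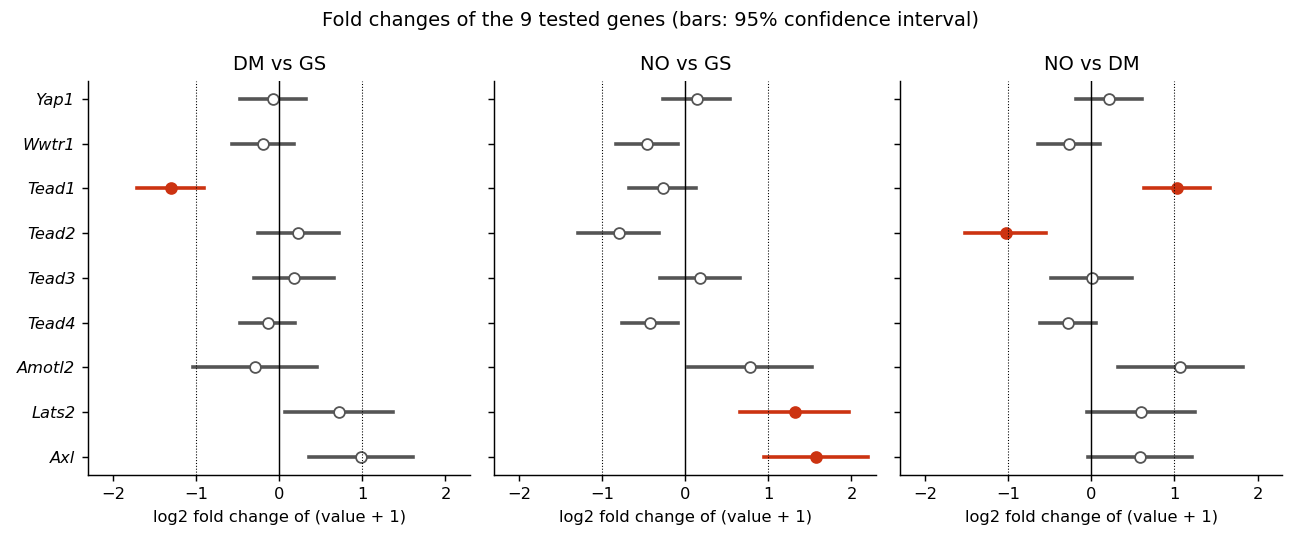
Log2 fold change of (value + 1) for the 9 tested genes (y axis) in the 3 comparisons, with 95% confidence intervals from limma as bars, filled red symbols for called genes and dotted lines at a 2-fold change. The called genes are *Tead1* in DM vs GS, *Lats2* and *Axl* in NO vs GS, and *Tead1* and *Tead2*, in opposite directions, in NO vs DM.

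Levels of different genes can be set side by side only per length, here as normalised counts per kilobase of all annotated exons of a gene. On this scale *Tead2* made up 40.1% ± 2.7 of the summed TEAD level of GS samples (SD, n = 3), 52.1% ± 5.4 for DM and 32.6% ± 7.2 for NO. The share of *Tead1* was 22.3%, 23.3% and 24.6% in GS, 10.2%, 13.2% and 8.45% in DM, and 21.1%, 38.9% and 23.8% in NO replicates 1, 2 and 3. *Tead1* thus took a smaller share in every DM sample than in any GS or NO sample, and *Tead2* a larger one. The shares are parts of a whole, so a smaller *Tead1* share goes with larger others, and their tests are not independent. The normalised counts of *Tead2* overlapped between GS and DM. The share of *Tead4* was 33.8% ± 1.8, 34% ± 3.6 and 35.2% ± 3.9 in GS, DM and NO, and that of *Tead3* lay between 2.55% and 6.02% in all samples. With 3 samples against 3 the exact two-sided permutation test cannot go below 0.1. This value was reached for *Tead1* and *Tead2* between DM and either other medium (adjusted over 12 tests, 0.171). It was also reached for *Tead2* in NO vs GS (-7.55 points) and for *Tead3* in DM vs GS (0.67) and NO vs GS (1.7). In NO replicate 2 *Tead1* was the largest share, ahead of *Tead4* at 30.8% and *Tead2* at 24.3%, and in no other sample was this so.

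**Figure D3:**
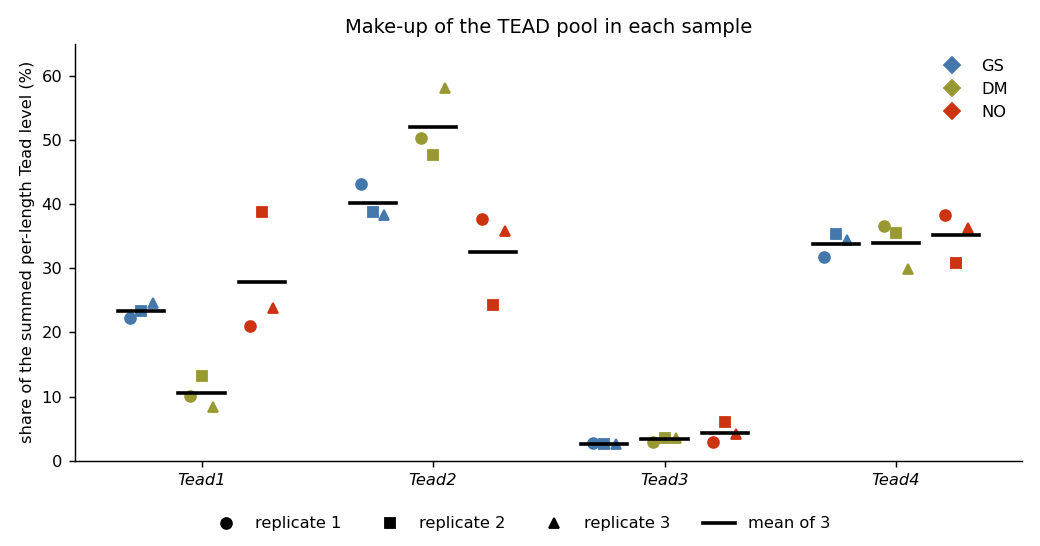
Share of each *Tead* gene in the summed per-length TEAD level of a sample (y axis, percent), by gene on the x axis and medium by colour, with symbols for replicates and a bar for the mean of 3. The mean share of *Tead1* is 23.4% in GS, 10.6% in DM and 27.9% in NO, and that of *Tead2* is 40.1%, 52.1% and 32.6%.

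Among all 10 members, the per-length order in GS was *Tead2* (426 normalised counts per kilobase), *Amotl2* (409), *Tead4* (357), *Wwtr1* (280), *Tead1* (247), *Yap1* (125), *Tead3* (27.9), *Axl* (25.0), *Lats2* (10.3) and *Ankrd1* (0.693). The ranges of the 3 samples overlapped between *Tead2* and *Amotl2*, between *Amotl2* and *Tead4*, and between *Tead3* and *Axl*, and were apart for the other neighbours. In DM *Tead1* stood behind *Yap1*, with ranges that overlapped, and *Axl* ahead of *Tead3*. In NO *Amotl2* came first at 804 ± 528 (SD, n = 3), and *Tead4*, *Tead2*, *Tead1* and *Wwtr1* followed at 269, 250, 208 and 203, each overlapping with the next. *Ankrd1* was last in each medium. With the longest transcript as length, *Tead1* stood ahead of *Wwtr1* in GS and *Tead3* ahead of *Axl* in DM. In NO *Tead2* (353) then stood ahead of *Tead4* (314) and *Yap1* (247) ahead of *Wwtr1* (207), with ranges that overlapped in both pairs.

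Of the 3 tested output genes, *Axl* and *Lats2* rose from GS to NO, and *Amotl2* was not called in any comparison. *Axl* (ENSMUSG00000002602, minus strand of chromosome 7, 25757273 to 25788705) encodes a receptor tyrosine kinase for the ligand GAS6. Its normalised counts were 144, 114 and 119 for GS, 235, 253 and 260 for DM, and 272, 656 and 293 for NO. The 3 media were fully apart, GS below DM and DM below NO. *Axl* rose by 1.57 ± 0.29 (SE) on the log2 scale in NO vs GS (adjusted p-value from limma 0.00357). Between DM and GS the log2 fold change was 0.99 and the adjusted p-value 0.0652, and between NO and DM 0.58 and 0.188. The adjusted p-value of DM vs GS was 0.0056 with the NO samples left out of the fit, 0.0381 without NO replicate 1 and 0.00204 without NO replicate 2. The increase in NO vs GS was 1.17 without NO replicate 2.

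*Lats2* (ENSMUSG00000021959, minus strand of chromosome 14, 57689662 to 57758388) encodes the kinase that inhibits YAP and is itself a YAP target. It was scarce, at 73, 86 and 56 normalised counts for GS, 101, 107 and 148 for DM, and 128, 276 and 157 for NO. Both serum media lay above GS in all samples, and DM and NO overlapped. *Lats2* rose by 1.31 ± 0.30 (SE) on the log2 scale in NO vs GS (adjusted p-value from limma 0.0104), by 1.00 without NO replicate 2, which is just under the 2-fold minimum, and with an adjusted p-value of 0.0506 without GS replicate 3. DM and GS differed by 0.72 (0.199), and NO and DM by 0.59 (0.197). In the annotation used here, 2955 exonic bases of *Lats2* are shared with the gene model *Gm49361* on the same strand, and reads over several genes were not counted, so its level is uncertain.

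*Amotl2* (ENSMUSG00000032531, plus strand of chromosome 9, 102716672 to 102733418) encodes angiomotin-like 2, which tethers YAP at junctions. The GS samples held 2575, 2915 and 2225 normalised counts, the DM samples 2135, 2118 and 2014, and the NO samples 2414, 8784 and 3971. DM was below both other media in every sample, and the NO samples were spread widely, the lowest lying within the GS range. The log2 fold change in NO vs DM was 1.07 ± 0.34 (SE), and the adjusted p-value from limma was 0.0575. It was 0.0388 with the replicate number as a block over all 9 samples, 0.0431 after scaling to equal totals, and 0.00244 without NO replicate 1. The block is given because deviations of same-numbered NO and DM samples were weakly correlated (0.159 to 0.296), which was not tested. The block also took in GS, whose same-numbered samples had correlations of -0.232 to 0.0503 with the other media. The adjusted p-value was 0.123 with NO and DM alone, and without NO replicate 2 the log2 fold change was 0.57 and the adjusted p-value 0.107. The adjusted p-value was 0.131 for NO vs GS (0.00618 without NO replicate 1) and 0.699 for DM vs GS.

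*Ankrd1* (ENSMUSG00000024803, minus strand of chromosome 19, 36111961 to 36120099), which encodes a cardiac ankyrin repeat protein and is a standard YAP readout in adherent cells, was at the limit of detection. The GS samples were at 0, 1 and 5 normalised counts, the DM samples at 1, 0 and 1, and the NO samples at 0, 8 and 10. These are a few reads per sample, NO replicate 1 had none, and no difference was detectable at this depth.

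For comparison, a signature of 18 other genes commonly read as YAP targets was listed, of which 15 were tested. From GS to NO 6 of the 15 rose, where 10.1% of all genes were called higher. From DM to NO 4 rose (6.78% of all genes), and from GS to DM 3 rose (2.94%). The limma fit called 0 of the 15 lower in any comparison, and 0 were lower at an unadjusted p under 0.05. Without NO replicate 2 the counts were 4, 3 and 3. The median log2 fold change of the 15 was 0.90, 0.63 and 0.05 in the same order. The matricellular *Ccn1* (Cyr61) was at 203, 259 and 143 normalised counts for GS, 123, 103 and 78 for DM, and 314, 1937 and 456 for NO. *Ccn2* (Ctgf) was at 284, 333 and 314 for GS, 209, 195 and 232 for DM, and 306, 1555 and 722 for NO. For both, every DM sample was under every GS sample and every NO sample above every DM sample. *Ccn1* rose by 2.70 ± 0.52 (SE) and *Ccn2* by 1.72 ± 0.42 on the log2 scale in NO vs DM, with adjusted p-values from limma of 0.00891 and 0.0219. Without NO replicate 2 these increases were 1.91 and 1.15, and both were still called. Over GS *Ccn1* was also called (1.73, adjusted p-value 0.0378), with 0.95 and 0.0479 without NO replicate 2. *Ccn2* shares 665 exonic bases with *Gm15270* on the opposite strand.

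The phosphatase gene *Ptpn14*, whose product binds YAP and restrains it, was at 1451, 1601 and 1347 normalised counts for GS, 1452, 1421 and 1355 for DM, and 3097, 8745 and 4635 for NO. GS and DM overlapped, and every NO sample was above all of them. It rose by 1.77 over GS and by 1.83 over DM on the log2 scale (adjusted p-values from limma 0.00181 and 0.00358), and by 1.37 and 1.43 without NO replicate 2. *Crim1*, a BMP-binding membrane protein gene, rose by 1.53 over GS and by 1.32 over DM (0.0205 and 0.0473). *Igfbp3*, an IGF-binding protein gene, rose by 1.27 over GS (0.0222). Without NO replicate 2 *Crim1* had 0.97 and 0.77 and *Igfbp3* 0.84, and neither was called. *Gadd45a*, a growth arrest and DNA damage gene that p53 also controls, and *Nuak2*, an AMPK-related kinase gene, rose already in DM by 1.42 and 1.18 (0.00645 and 0.00287) and by 1.84 and 1.81 in NO vs GS (0.00111 and 0.00042). *Fjx1*, the four-jointed homologue, rose from GS to DM by 1.34 (0.0112). *Tgfb2*, which encodes a TGF-β ligand, had 1.65 in NO vs DM with an adjusted p-value of 0.0609. With the replicate block it was 0.0421. Quantile normalisation gave 1.33 (0.10), and the fit without NO replicate 2 gave 1.03 (0.208). *Foxf2*, *Ccdc80* and *Rbms3* were too low to be tested.

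Of the 18 genes, 11 had a promoter window, the untested *Foxf2* and *Rbms3* among them. The TEAD hexamer was held by 3 of these (27.3%), namely *Ccn1*, *Crim1* and *Ptpn14*. It was held by 14.9% of tested genes and 16.6% of all genes with a window. *Igfbp3* and *Gadd45a*, which also rose from GS to NO, had a window without a match. The 3 matches are shown as above.
*Ccn1*, at -103, chr3:145650063-145650108, minus strand: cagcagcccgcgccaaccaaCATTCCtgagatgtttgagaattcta
*Crim1*, at -79, chr17:78200149-78200194, plus strand: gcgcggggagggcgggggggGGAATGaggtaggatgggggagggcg
*Ptpn14*, at -146, chr1:189728102-189728147, plus strand: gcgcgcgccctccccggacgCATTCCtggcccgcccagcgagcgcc

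**Figure D4:**
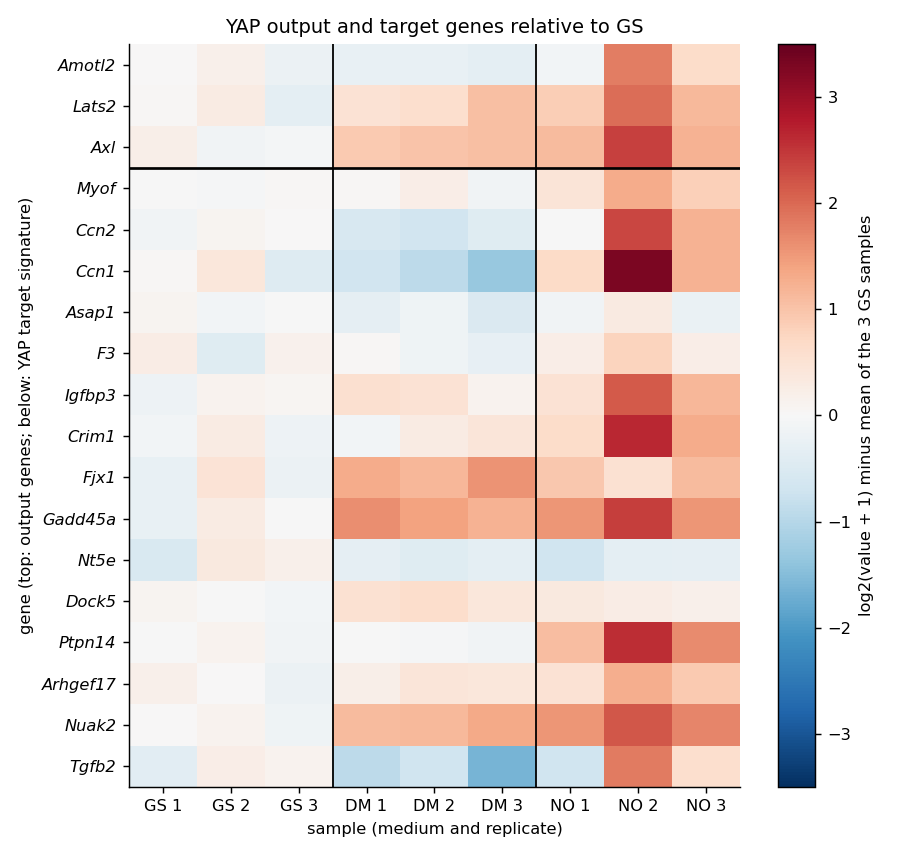
Difference of log2(normalised count + 1) from the mean of the 3 GS samples (colour) for the 3 tested output genes and, under the line, 15 tested genes of the YAP target signature, in each of the 9 samples on the x axis. In NO replicate 2 *Ccn1* lies at 3.30 and *Ptpn14* at 2.58. *Ccn1* and *Tgfb2* are among several genes under the GS mean in all 3 DM samples.

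Within NO the output genes had a common order of samples. *Amotl2*, *Lats2* and *Axl* were each highest in replicate 2, next in replicate 3 and lowest in replicate 1, an order found in 11 of 15 tested signature genes and in 28.7% of all tested genes. Markers of other cell types moved in part with it. The summed level of 8 trophoblast markers, of which 6 are in the table, was 416, 1333 and 576 normalised counts in NO replicates 1, 2 and 3, against 347 to 435 in DM and 639 to 700 in GS. Within this list *Krt7* (65, 484 and 146 in NO) and *Hand1* (11, 111 and 33) were called higher in NO than in GS and DM, with NO replicate 2 in the fit. *Tfap2c* was at 326, 262 and 275 in GS, 34, 41 and 52 in DM, and 144, 426 and 186 in NO. It was called lower in DM than in GS (-2.75, adjusted p-value from limma 0.000694) and higher in NO than in DM. Its log2 fold change in NO vs GS was -0.35 (0.51). *Ascl2* was not called in any comparison. *Eomes* was called lower than in GS in DM and in NO, at 229, 308 and 298 for GS, 111, 170 and 122 for DM, and 90, 91 and 118 for NO. *Elf5* was at or under 13 in all samples. Of 8 primitive endoderm markers *Gata6* had 20, 234 and 90 in NO and 15 or less elsewhere. *Gata4* (107, 179 and 123), *Sox17* (10, 69 and 26) and *Pdgfra* (30, 170 and 64) had the same order within NO. *Dab2*, *Sox7*, *Foxa2* and *Lama1* did not. The summed level of the list, mostly *Lama1*, was 3583 to 4602 in NO, 2929 to 3607 in DM and 7550 to 8354 in GS. *Lama1* was called lower than in GS in DM (-1.29, adjusted p-value from limma 0.000922) and in NO (-1.09, 0.00156). The summed level of 8 fibroblast markers was 318 to 496 in all samples, with *Postn* and *Lum* at or under 3. Among them *Col1a1*, at 39, 88 and 39 in NO, was called higher in NO than in GS (1.49, adjusted p-value from limma 0.0207) and DM (1.56, 0.0239). *Thy1* was called higher than in GS in DM (1.70, 0.000303) and in NO (1.47, 0.000676). *Pdgfrb* went the other way, with -0.97 in NO vs GS (adjusted p-value from limma 0.0169), which is less than 2-fold. *Col1a2* and *Col3a1* were not called in any comparison. Among the 10 pluripotency markers, *Tfcp2l1* was called lower than in GS in DM (-1.47, 0.000714) and in NO (-1.25, 0.0013). *Utf1* was called higher in DM than in GS (2.18, 0.00198) and lower in NO than in DM (-1.59, 0.0107). In bulk RNA, more cells of a type and more RNA per cell cannot be told apart, and the part of such cells in the values of the output genes was not tested.

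The embryonic TEAD4 targets were low. *Cdx2* was at 54, 75 and 46 normalised counts for GS, 0, 4 and 0 for DM, and 3, 14 and 5 for NO. It fell in both serum media relative to GS (adjusted p-values from limma 0.00115 and 0.011), with no overlap of groups. Between NO and DM its adjusted p-value was 0.0679, against 0.0285 with the replicate block, 0.166 with quantile normalisation and 0.235 without NO replicate 2. *Gata3* was at 33, 32 and 29 for GS, 20, 13 and 20 for DM, and 41, 114 and 46 for NO. It rose by 1.73 on the log2 scale from DM to NO (adjusted p-value 0.0159), and by 1.28 without NO replicate 2.

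As regulators of YAP and TEAD, 35 genes were listed and 32 tested. Of these, 1 rose from GS to DM, 4 from GS to NO and 4 from DM to NO, and limma called 0 lower. Of all tested genes, 2.94%, 10.1% and 6.78% were called higher in these comparisons. Without NO replicate 2 the counts were 1, 3 and 2, and with all samples the median log2 fold changes were -0.10, -0.03 and 0.06. None of the 14 kinases and scaffolds of the core, *Stk3*, *Stk4*, *Sav1*, *Lats1* and *Mob1a* among them, was called by limma, while 7, 2 and 5 of them had an unadjusted p under 0.05 in DM vs GS, NO vs GS and NO vs DM, with 5, 2 and 2 of these lower. The same threshold was passed by 19.9%, 34.6% and 31.3% of all tested genes. The largest such difference past the adjusted p-value was that of *Taok3*, 0.80 in NO vs DM (0.0317). *Frmd6*, an upstream FERM protein gene, fell by 0.77 in DM vs GS (0.00414) and was higher by 0.54 in NO vs DM (0.0202). *Wwc1* was lower by 0.53 in NO vs DM (adjusted p-value from limma 0.031), and *Nf2* (merlin) was higher by 0.46 in DM vs GS (0.0313).

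The regulators that rose were *Ptpn14*, which is on both lists, *Amotl1*, *Vgll3*, *Dchs1* and *Crb3*. The polarity gene *Llgl1* was lower in NO, by a log2 fold change of -0.74 against GS and -0.88 against DM (adjusted p-values from limma 0.0183 and 0.0134), less than 2-fold. Also under 2-fold, the cadherin gene *Fat1* was higher in NO, by 0.86 against GS (0.0377) and 0.99 against DM (0.0286). Its NO values were 11668, 27782 and 15860. *Patj* was higher by 0.95 in NO vs DM (0.0311). *Amotl1*, the paralogue of *Amotl2*, was at 910, 825 and 704 normalised counts for GS, 500, 540 and 480 for DM, and 946, 3408 and 1461 for NO, and rose by 1.73 ± 0.35 (SE) on the log2 scale in NO vs DM (adjusted p-value from limma 0.01). Like *Amotl2*, it was lowest in the DM samples and highest in NO replicate 2. *Vgll3*, a TEAD cofactor that competes with YAP, had 20 to 35 in GS and DM and 49, 197 and 84 in NO, and was called in both comparisons with NO, but not without NO replicate 2. *Dchs1*, the protocadherin ligand of FAT4, had 6 to 13 in GS and DM and 21, 75 and 37 in NO (0.00638 over GS and 0.0279 over DM, the latter 0.103 without NO replicate 2). *Crb3*, an apical polarity gene, rose by 1.35 from GS to NO (0.00576). Its difference of 1.07 between DM and GS (0.037) was not called with the replicate block (0.0577), with quantile normalisation (0.0674), or without any 1 of the GS or DM samples or NO replicate 3.

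The genes whose pattern over the 9 samples was most like that of an output gene were looked up among 14931 tested protein-coding genes by Pearson r of log2(value + 1). The 9 points share media and include NO replicate 2, so r is a description with no p. For *Amotl2* these were *Arfgef2* (0.992), *Fosl2* (0.987) and *Sept4* (0.986). For *Lats2* they were *Ddr1* (0.990), *Znf512b* (0.987) and *Map4k1* (0.986), and for *Axl* they were *Tmem130* (0.993), *Mxra7* (0.988) and *Creb3l1* (0.988). *Fosl2*, an AP-1 subunit gene, was at 46, 40 and 25 normalised counts for GS, 23, 26 and 27 for DM, and 36, 270 and 76 for NO. *Ddr1*, a collagen receptor gene, was at 458, 479 and 328, then 731, 764 and 1016, then 773, 2378 and 1135 in the same order.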

How the data were processed

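Total RNA of mESC in GS, DM and NO (3 samples each, grouped by the medium in the labels) was depleted of ribosomal RNA and sequenced on an Ion Torrent Proton. The authors aligned the reads to GRCm38 with STAR 2.4.0a, counted them over exons per gene with featureCounts 1.4.5-p1, excluding reads over several genes or positions, and normalised them with DESeq2. Use of strand was not stated. The deposited values are a score, namely counts divided by a size factor and rounded by the authors, so no count model was fitted. Members and lists were chosen with earlier results of these data known.

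Log2(value + 1) of 18156 genes with a mean above 5 was fitted with limma 3.58.1 (R 4.3.3), all 9 samples together, with a mean-variance trend and no covariate. Tests were two-sided, and p-values were adjusted over all tested genes. All 10 members are named, and of other lists the called genes (at most 6 per list and comparison) and *Ccn1*, *Ccn2*, *Cdx2* and *Gata3*; other genes of the lists were named after their values were seen. For each output gene, the 3 most similar genes were named. Depth was estimated from gaps among low values. Coordinates are from GENCODE M21 (GRCm38), whose release may differ from that of the authors. Replicate numbers recur in the media. The deviations of same-numbered NO and DM samples correlated with 0.159, 0.167 and 0.296, those of DM and GS and of NO and GS with -0.232 to 0.0503. The replicate block was fitted to all 9 samples, so it paired GS by number as well, for which these correlations give no ground. The weak correlations of NO and DM were not tested. Alternatives were fits with 2 media, the replicate block, minimum means of 0 or 50, pseudocounts of 0.5 and 5, other scalings, no trend, other fold minima, and leaving out each sample.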

Additional observations from a re-analysis of the deposited data

How the results depend on the processing

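Of 486 refits of member fold changes, 461 kept direction and side of the adjusted p-value threshold of 0.05, 10 passed it newly, 7 lost it and 8 changed sign, the last all for values that did not pass. Leaving out 1 sample moved *Yap1* between -0.0801 and 0.308 for NO against GS and between -0.00326 and 0.384 against DM, *Wwtr1* between -0.329 and 0.00642 in DM vs GS, and *Tead3* between -0.0246 and 0.371 over GS and between -0.203 and 0.192 for NO vs DM. With quantile normalisation *Tead3* had -0.0425 for NO against GS and -0.146 against DM. A minimum log2 fold change of 2 left 0 members in each comparison, 0, 1 and 0 regulators and 0, 0 and 1 signature genes in DM vs GS, NO vs GS and NO vs DM. No minimum gave 3 regulators in DM vs GS and 10 for NO against DM. Quantile normalisation left 1 member each for NO against GS and against DM. The regulator called in DM vs GS was lost (0) with quantile normalisation, the replicate block, no minimum mean or no trend. Without the trend 3 signature genes were called for NO against GS and 2 against DM, and with NO and DM alone 2 regulators and 2 signature genes. Leaving out 1 sample gave 1 to 3 members for NO against GS and 0 to 3 against DM, 0 to 1 regulators for DM vs GS and 2 to 8 for NO vs DM, and 3 to 9 signature genes for NO against GS and 2 to 7 against DM. The replicate block gave 1, 2 and 3 members, and beyond *Amotl2*, *Cdx2* and the regulator *Crb3* in DM vs GS it added *Amotl1* in NO vs GS and *Tgfb2* in NO vs DM (adjusted p-value 0.0421). With the longest transcript as length, *Tead3* held 3.86%, 4.81% and 6.32% and *Tead4* 29.7%, 29.7% and 30.8% of the TEAD level in GS, DM and NO. Scaling to equal totals shifted the median of all genes in NO vs GS by 0.109, and quantile normalisation lowered the share of higher calls there from 86% to 67.5% and in NO vs DM from 79.3% to 65.1%. The cause of these changes was not tested. Depth limits *Ankrd1* and the other genes of few reads.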
